A study of Homo sapiens
Mus musculus and Homo sapiens with 12 samples.

Results

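HGF, STC1, TNFRSF11B and NPTX1 are 4 human genes for secreted proteins whose transcripts were more abundant in co-cultures of human fibroblasts and mouse embryonic stem cells than in the other libraries. They are 4 of the 5341 human genes that were above 0 in at least 1 table covering them, and they were chosen by name for that high level in co-culture. The co-culture values are therefore given as a description, without a test. The 4 genes were tested only between heterokaryon days and between heterokaryons and unfused fibroblasts, contrasts of groups other than co-culture; the co-culture libraries still entered the shared estimate of spread. Other genes were also tested against co-culture.

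PolyA RNA was sequenced from MRC5 cells, a line of human fetal lung fibroblasts, and from D3 cells, a line of mouse embryonic stem cells, in several arrangements. Heterokaryons, in which the membranes of a mouse stem cell and a human fibroblast have fused while the nuclei stay separate, were collected at day 1, day 2 and day 3 with 2 libraries each. The 2 co-culture libraries hold RNA of both cell types grown together without fusion and harvested as a mixture. The unfused fibroblast libraries are labelled as unfused fibroblasts, but replicate 3 gave no human values. Replicate 1 also listed 12138 entries outside the human set, which were not used. The single homokaryon library is labelled as the fusion of human fibroblasts with each other. No group carries a further treatment or genetic change according to the labels, and nothing in them tells if replicates came from different cultures, so each p-value speaks of the spread between libraries, which may be technical. The extraction protocol, given in the same words for every library, speaks of sorted heterokaryons and gives no separate account of how co-cultured or unfused cells were collected.

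Values are called RPKM, a read density scaled to transcript length and library size, a unit inferred from the values. The total number of reads per library is not known, so no counting interval can be given. Of the 12 libraries 11 gave human values: the table of unfused fibroblast replicate 3 holds no accession of the human RefSeq table and was not used. Each of the other tables stops at a different point in accession order. HGF lies before that point in 11 libraries, whereas STC1, TNFRSF11B and NPTX1 are not covered in unfused fibroblast replicate 1 and have 1 unfused fibroblast value, that of replicate 2. Among the 10 more complete tables, the summed level of the 6 covered fibroblast markers (of 11 listed) was 4268 to 7052 RPKM in the heterokaryons, 6234 and 6258 in the co-cultures, 7269 in unfused fibroblast replicate 2 and highest in the homokaryon, at 14917. COL1A1 and VIM, a collagen chain and an intermediate filament protein that mark fibroblasts, were at 1429 RPKM or more in each of these libraries. The other covered fibroblast markers were lower or more variable. COL1A2 ranged from 976 to 5054 RPKM, COL3A1 from 73.4 to 2251 and PDGFRB from 29.03 to 88.2. LUM did not exceed 2.58 RPKM and was at 0 in several libraries. Of the human pluripotency markers 2 of 8 were covered: SOX2 was listed in none of the 10 tables and UTF1 in 1, at 0.215 RPKM. The 3 covered epithelial markers of 5 summed to 88.6 to 585 RPKM in the heterokaryons, 5.94 and 18.7 in the co-cultures, 7.12 in the unfused fibroblast library and 16.7 in the homokaryon. Of neuronal markers NEUROD1 and RBFOX3 were at 0 in all 10 tables and the sum of the 3 covered ones of 7 did not exceed 0.736. The 5 endothelial markers summed to 1.29 to 24.8 RPKM, the 4 covered haematopoietic markers of 5 to between 0 and 14.1 with CD3E at 0 in all, and the 3 covered osteoblast markers of 6 to between 0 and 46.0. The part of these marker levels in the results below was not tested.

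HGF, hepatocyte growth factor, is made by mesenchymal cells such as fibroblasts as an inactive precursor, is cleaved by serine proteases and acts on neighbouring epithelial and endothelial cells through the receptor tyrosine kinase MET. STC1, stanniocalcin 1, is a secreted glycoprotein hormone that acts locally, and like its paralog STC2 it can inhibit the protease PAPPA, which releases insulin-like growth factors from their binding proteins. TNFRSF11B, osteoprotegerin, is a soluble receptor of the tumour necrosis factor receptor family that binds the ligand RANKL (TNFSF11) and so keeps it from its signalling receptor RANK (TNFRSF11A), and it also binds TRAIL (TNFSF10). NPTX1, neuronal pentraxin 1, is a secreted pentraxin best known for clustering glutamate receptors at synapses. In fibroblast cultures these proteins are released into the medium, but the data here are transcript levels, and no protein was measured. In a lysate of many cells, fewer cells of a type and less RNA per cell cannot be told apart.

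HGF was the member with the largest set of transcripts. The gene lies on chromosome 7 at 81699010 to 81770047 (GRCh38, minus strand), and 5 RefSeq coding transcripts were summed. NM_000601 and NM_001010932 both encode the long protein and differ by 15 coding bases at the start of exon 5, at 81752248 to 81752262. They are shown because their values were nearly the same in every library and so bear on what the sum means. The sequences are those of the GENCODE release 29 transcripts that the annotation links to these accessions, 5′ to 3′ with 30 bases on each side, and capitals mark the bases that only the first holds.
NM_000601: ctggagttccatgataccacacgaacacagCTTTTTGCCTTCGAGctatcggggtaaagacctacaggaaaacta
NM_001010932: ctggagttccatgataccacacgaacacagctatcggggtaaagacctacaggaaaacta
The ratio of the former to the latter ranged from 0.854 to 1.02 across the 11 libraries, with a median of 0.979. Reads from coding sequence away from these 15 bases fit both transcripts, and the sources used here do not give how reads were divided between them. The sum over transcripts may thus count a read more than once, and the value of the full-length transcript NM_000601 is given beside it.

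In unfused fibroblasts the summed HGF level was 22.5 and 22.8 RPKM in replicates 1 and 2. In the co-cultures it was 127 and 198. The homokaryon had 89.5. Both co-cultures lay above every other library, the homokaryon came next, and the fibroblast libraries differed from each other by a factor of 1.01. The lower co-culture value was 5.57 times the higher unfused fibroblast value and 1.42 times the homokaryon value.

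The heterokaryons held 20.9 and 42.6 RPKM of HGF at day 1. At day 2 they held 17.8 and 24.7, and at day 3 they held 11.4 and 25.9. The 3 days overlapped one another, and the unfused fibroblast values fell inside the range of the heterokaryons. In each heterokaryon group replicate 2 was the higher one, by a factor of 2.04 on day 1, 1.39 on day 2 and 2.28 on day 3. The lower co-culture value was 2.98 times the highest heterokaryon value, that of day 1 replicate 2.

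**Figure D1:**
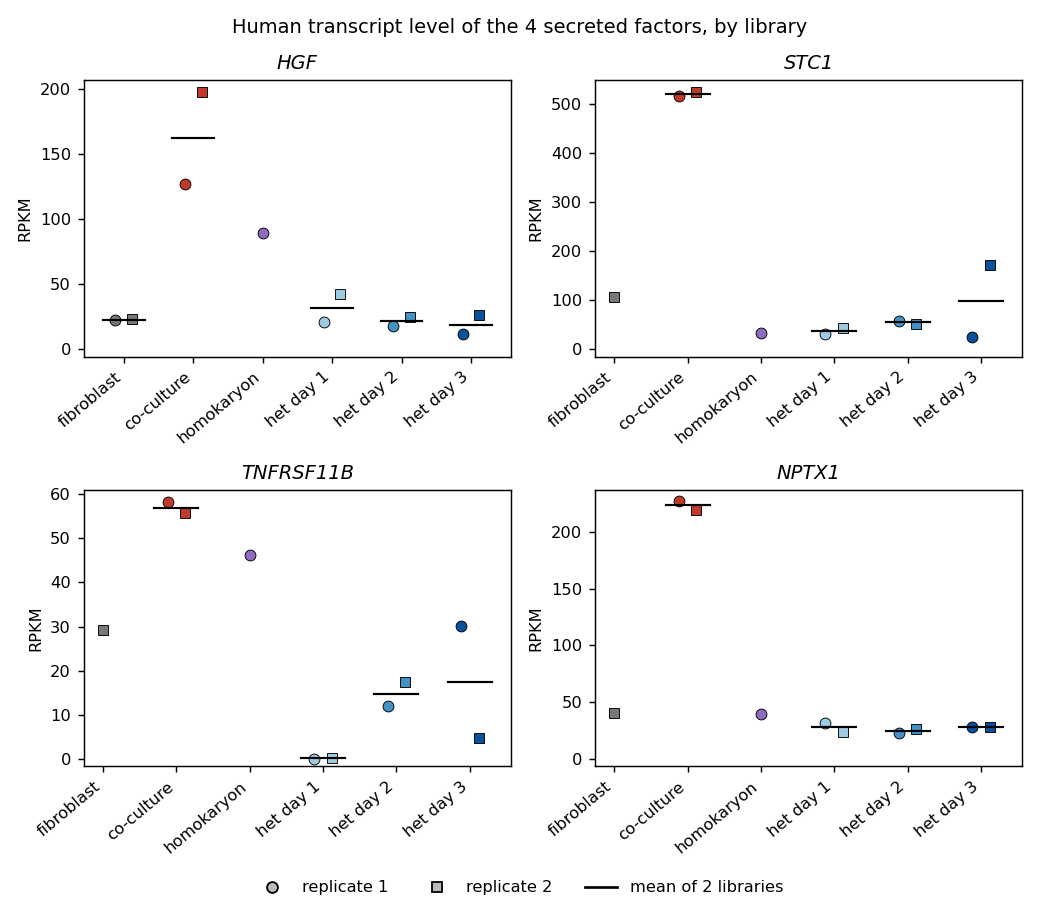
Transcript level in RPKM (linear axis from 0) of HGF, STC1, TNFRSF11B and NPTX1 in each library, with points for replicates, bars for the mean of 2 libraries, and unfused fibroblast replicate 1 shown for HGF alone because its table does not cover the other genes. In all 4 panels both co-culture points lie above every other point; the homokaryon is second for HGF, at 89.5, and TNFRSF11B, at 46.2, and among the lower points for STC1, at 31.6.

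The full-length transcript NM_000601 alone gave the same order of groups. It was at 19.8 and 36.5 RPKM in the co-cultures, at 15.7 in the homokaryon, at 4.95 and 4.75 in unfused fibroblast replicates 1 and 2, and between 1.91 and 7.97 in the heterokaryons. NM_001010931 and NM_001010933, which encode a short protein lacking the protease-like part, were at 18.4 and 19.6 RPKM in co-culture replicate 1 and at 53.6 and 56.1 in replicate 2. NM_001010934, another short form, went the other way, with 48.7 RPKM in co-culture replicate 1 and 14.3 in replicate 2. It made up 38.4% of the sum in the first and 7.23% in the second. The 2 co-cultures therefore agreed that HGF was high while their transcripts were listed in different proportions. NM_001010934 also made up 34.3% of the sum in the homokaryon, 26.0% and 41.4% at heterokaryon day 2, and 10.5% or less in the other heterokaryon and fibroblast libraries.

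**Figure D2:**
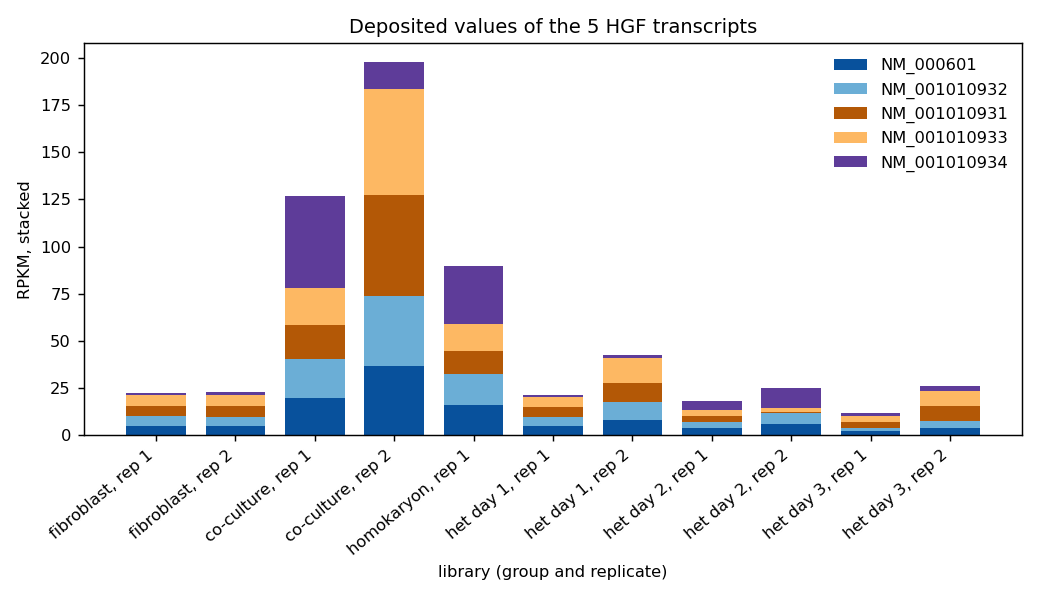
Deposited values of the 5 HGF coding transcripts, stacked in RPKM (linear axis from 0), for each of the 11 libraries. The NM_000601 and NM_001010932 segments are of like height in every bar, and NM_001010934 is 48.7 in co-culture replicate 1 against 14.3 in replicate 2.

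STC1 had the highest level of the 4 genes in the co-cultures. It lies on chromosome 8 at 23841929 to 23854806 (GRCh38) and has 1 coding transcript, so no choice of isoform enters its value. STC1 was at 516 and 523 RPKM in the co-cultures, at 106 in the covered unfused fibroblast library, replicate 2, and at 31.6 in the homokaryon. Unlike HGF, it was lower in the homokaryon than in the unfused fibroblast library, with a fibroblast value 3.36 times as high. The lower co-culture value was 16.3 times the homokaryon value.

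In the heterokaryons STC1 was at 29.97 and 42.6 RPKM at day 1 and at 57.7 and 51.9 at day 2. At day 3 the replicates were at 24.1 and 171. These 2 libraries differed by a factor of 7.08 and enclosed all the other heterokaryon values, so the mean at day 3, 97.4 ± 104 RPKM (SD, n = 2), describes neither. Day 3 replicate 2 was the only heterokaryon library above the unfused fibroblast value, and the lower co-culture value was still 3.02 times as high.

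TNFRSF11B lies on chromosome 8 at 118923557 to 118951885 (GRCh38) and also has 1 coding transcript. It was at 58.2 and 55.8 RPKM in the co-cultures, at 46.2 in the homokaryon and at 29.2 in the lone unfused fibroblast library. The step from the homokaryon to the lower co-culture value was a factor of 1.21, the smallest such step among the 4 genes. Co-culture replicates differed by a factor of 1.04, but the spread of homokaryons is not known from 1 library.

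At heterokaryon day 1 TNFRSF11B was near absent from the tables: replicate 1 did not list it and counts as 0, and replicate 2 had 0.218 RPKM. At day 2 it was at 12.1 and 17.4 RPKM. At day 3 it was at 30.2 and 4.67. All 4 later heterokaryon libraries lay above both day 1 libraries, while day 3 enclosed day 2. The day 3 replicates differed by a factor of 6.47, and in the opposite sense to STC1: replicate 1 was the higher for TNFRSF11B and replicate 2 for STC1.

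NPTX1, on chromosome 17 at 80466834 to 80476607 (GRCh38) with 1 coding transcript, had the clearest gap between co-culture and all other groups. It was at 227 and 220 RPKM in the co-cultures, at 40.2 in the fibroblast library and at 39.9 in the homokaryon. The heterokaryons held 31.8 and 23.8 RPKM on the first day, 22.4 and 25.8 on the second, and 28.1 in both libraries of the third. All 6 heterokaryon values lay below the unfused fibroblast and homokaryon values, which were within 1% of each other as deposited. The lower co-culture value was 6.91 times the highest heterokaryon value and 5.51 times the homokaryon value.

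The 4 genes thus shared the high co-culture level by which they were chosen and differed in the order of the other groups. For HGF the homokaryon was above the fibroblasts, at 3.96 times their mean. TNFRSF11B in the homokaryon was at 1.58 times the fibroblast value, NPTX1 was at 0.992 times and STC1 at 0.298 times. The homokaryon is 1 library and these ratios have no replicate check. They depend on the scaling: when each library was divided by its upper quartile they were 2.93 for HGF, 1.18 for TNFRSF11B, 0.740 for NPTX1 and 0.222 for STC1.

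The mean co-culture level over the mean of the 6 heterokaryon libraries was 8.39 for NPTX1, 8.27 for STC1, 6.80 for HGF and 5.29 for TNFRSF11B. On the fitted log2 scale, in which 1 was added to each value so that changes of low values are understated, HGF differed from co-culture by -2.37 on day 1, -2.86 on day 2 and -3.13 on day 3. The differences of NPTX1 were -2.98, -3.17 and -2.95, those of STC1 were -3.83, -3.22 and -2.99, and those of TNFRSF11B were -5.71, -1.90 and -2.12. At day 3 the STC1 difference was -1.60 without day 3 replicate 1 and the TNFRSF11B difference -0.89 without day 3 replicate 2. The standard errors were 0.27 to 0.28 for NPTX1, 0.47 for HGF and 0.73 to 0.74 for TNFRSF11B and STC1. Against unfused fibroblasts the co-culture difference was 2.75 for HGF, 2.45 for NPTX1, 2.28 for STC1 and 0.94 for TNFRSF11B. For the latter 3 genes the fibroblast arm is a lone library. These comparisons share the co-culture libraries and are not independent of each other.

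The same contrast was seen when a library's values were expressed in parts per 1000000 of the summed level of the 3407 genes that all of the 10 more complete tables cover and at least 1 lists. NPTX1 then stood at 1468 and 1486 in the co-cultures and at 139 to 190 in the heterokaryons, and HGF stood at 819 and 1338 against 76.8 to 252. Among these genes STC1 ranked 67th and 60th from the top in the co-cultures and between 164th and 669th in the heterokaryons. TNFRSF11B ranked 356th and 361st in the co-cultures, 413th in the homokaryon and 574th at best in the heterokaryons. This restates the co-culture difference on another scale and adds no independent support to it.

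Whether the 4 genes moved over the 3 days after fusion was tested in a limma fit across all genes covered in both days. Between day 1 and day 2, 8 of 2443 genes were called (0.327%). No member was among them. TNFRSF11B had the largest difference, 3.81 on the log2 scale (SE 0.73, 95% interval 2.11 to 5.51, adjusted p = 0.0739), with both day 2 libraries above both day 1 libraries. STC1 differed by 0.60 (adjusted p = 0.698), HGF by -0.49 (adjusted p = 0.609) and NPTX1 by -0.19 (adjusted p = 0.742). Without day 1 replicate 2 the HGF difference was 0.01, and without day 1 replicate 1 the NPTX1 difference was 0.02.

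Between day 2 and day 3 limma called 0 of 2443 genes (0%) at an adjusted p under 0.05, with 200 genes at an unadjusted p under 0.05. The member differences were -0.27 for HGF, 0.24 for STC1, -0.22 for TNFRSF11B and 0.22 for NPTX1, with adjusted p of 0.912, 0.947, 0.954 and 0.854. The 95% interval was -0.41 to 0.85 for NPTX1 but -1.92 to 1.48 for TNFRSF11B and -1.48 to 1.96 for STC1, so for the latter 2 genes the data leave room for a change in either direction. Without day 3 replicate 2 the STC1 difference was -1.15 and the TNFRSF11B difference 1.01, and without day 3 replicate 1 the HGF difference was 0.29, each with the sign turned.

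Between day 1 and day 3, 38 of 3013 genes were called (1.26%), again without a member. TNFRSF11B differed by 3.59 (SE 0.73, 95% interval 1.90 to 5.28, adjusted p = 0.0652). It passed the threshold when libraries were scaled by their upper quartile (adjusted p = 0.0466) and when day 3 replicate 2 was left out (adjusted p = 0.0181), and over all alternatives its adjusted p ranged from 0.0181 to 0.312. STC1 differed by 0.84 (adjusted p = 0.596). This depended on day 3: without replicate 1 the STC1 difference was 2.22 (adjusted p = 0.0386), and without replicate 2 it was -0.55. HGF differed by -0.76 (95% interval -1.83 to 0.31, adjusted p = 0.436), and NPTX1 by 0.03 (95% interval -0.62 to 0.68, adjusted p = 0.978).

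**Figure D3:**
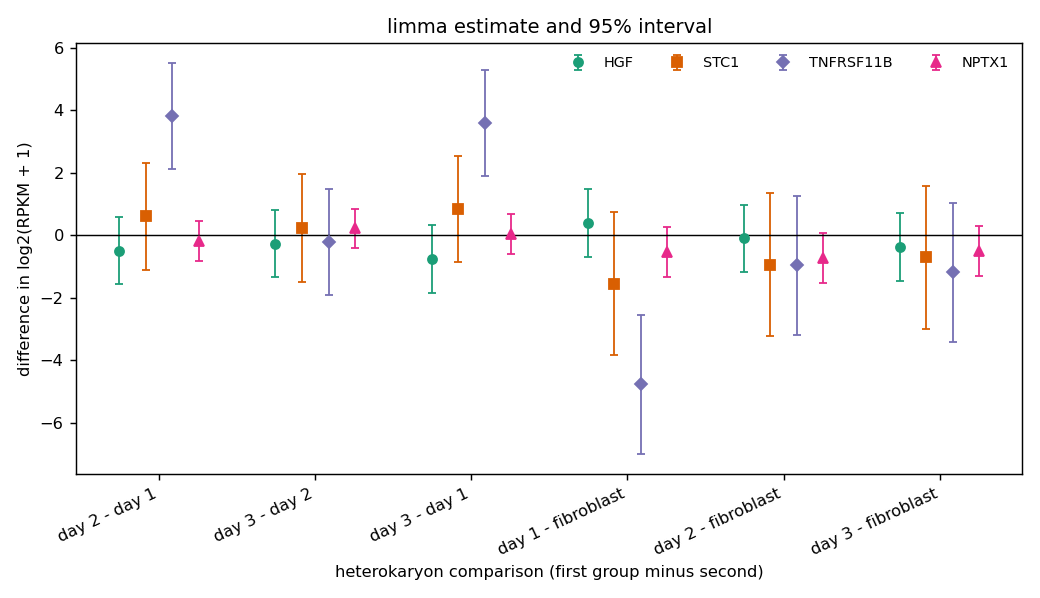
Difference of each member in log2(RPKM + 1) with its 95% interval from the limma fit, for the 3 comparisons between heterokaryon days and the 3 against unfused fibroblasts, first group minus second. The TNFRSF11B intervals leave 0 where day 1 is compared (3.81, 3.59 and -4.77), the NPTX1 intervals are the narrowest, and every other interval includes 0.

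Against unfused fibroblasts the heterokaryon level of HGF did not pass the test on any day. Its log2 difference was 0.39 at day 1 (95% interval -0.69 to 1.46, adjusted p = 0.667), -0.10 at day 2 (95% interval -1.18 to 0.97, adjusted p = 0.920) and -0.37 at day 3 (95% interval -1.45 to 0.70, adjusted p = 0.696). Of 963 genes covered in both fibroblast libraries, 154 (16%), 120 (12.5%) and 70 (7.27%) were called on days 1, 2 and 3. Without day 1 replicate 2 the HGF difference at day 1 was -0.11, and with upper quartile scaling it was -0.02. That scaling moved the median of all genes in this comparison from 0 to -0.16.

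STC1, TNFRSF11B and NPTX1 were compared with the lone fibroblast library that covers them, in a fit of 5393 genes that assumes it to vary like the replicated groups; the spread of these genes among unfused fibroblasts was not measured. TNFRSF11B differed by -4.77 on the log2 scale at day 1 (SE 0.94, 95% interval -7.00 to -2.55, adjusted p = 0.0434), which passed the threshold under that assumption, where 238 genes (4.41%) were called. The call ended with no filter on low values (adjusted p = 0.0679), with the replicate number as a block (adjusted p = 0.0851) and when day 1 replicate 1 (adjusted p = 0.109) or day 1 replicate 2 (adjusted p = 0.0944) was left out. Leaving out unfused fibroblast replicate 1, which does not cover the gene, changed the genes tested and the shared estimate of spread, and the call ended. Of these 2 groups only the fibroblast library reached 1 RPKM, so TNFRSF11B could not be fitted with the 2 groups alone. It passed the filter on low values through other groups, co-culture among them. At day 2, with 140 genes called (2.6%), and at day 3, with 90 called (1.67%), TNFRSF11B differed from the fibroblast by -0.96 (adjusted p = 0.679) and -1.18 (adjusted p = 0.663). STC1 differed by -1.55, -0.95 and -0.71 on the 3 days (adjusted p = 0.436, 0.695 and 0.811). NPTX1 differed by -0.53, -0.72 and -0.50 (adjusted p = 0.449, 0.342 and 0.599), with intervals that reached from -1.53 to 0.30 over the 3 days.

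The receptors, activators and relatives of the 4 proteins were read from lists of such genes. MET, the receptor of HGF, was at 8.20 and 8.02 RPKM in unfused fibroblast replicates 1 and 2. Heterokaryons had 0.0404 and 0 on day 1, 1.33 and 1.37 on day 2, and 1.95 and 0.721 on day 3, whereas co-cultures had 2.05 and 4.37 and the homokaryon 1.63. Every library with fused or co-cultured cells was thus below both fibroblast libraries. MET fell against unfused fibroblasts by 3.16 on the log2 scale at day 1 (SE 0.48, adjusted p = 0.00518), by 1.95 at day 2 (adjusted p = 0.0316) and by 2.02 at day 3 (adjusted p = 0.0397). Over all genes 6.65%, 2.91% and 1.87% were called lower on these days. MET was the 1 gene of 19 in the HGF list measured against unfused fibroblasts. The day 1 call held under 10 of 11 alternatives and ended without unfused fibroblast replicate 2 (adjusted p = 0.0685). The day 2 and day 3 calls each held under 4 of 11. MET was also lower at day 1 than in co-culture, where 386 of 3582 genes (10.8%) were called, 6.25% higher and 4.52% lower, with a log2 difference of -1.99 (adjusted p = 0.0430). How this MET call held under the alternatives was not tallied.

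PLAU, the urokinase protease that can cleave the HGF precursor, reached 399 and 408 RPKM on heterokaryon day 1, 792 and 709 on day 2 and 852 and 801 on day 3, beside 629 for the homokaryon, 447 for unfused fibroblast replicate 2 and 1529.7 and 1360.2 for the co-cultures. It was therefore highest in the co-cultures, like the 4 secreted factors, and its heterokaryon days did not overlap between day 1 and the later days. PLAU was lower than in co-culture by 1.84 on the log2 scale at day 1 (SE 0.18, adjusted p = 0.00233), which held under all 11 alternatives run. At day 2, where 255 of 2443 genes (10.4%) were called, 6.67% higher and 3.77% lower, it was lower by 0.94 (adjusted p = 0.0216), and at day 3, where 105 of 3013 (3.48%) were called, 2.29% higher and 1.19% lower, the difference of -0.80 did not pass (adjusted p = 0.0600). From day 1 to day 3 PLAU rose by 1.03 (adjusted p = 0.0462), a call that held under 3 of 11 alternatives. HGFAC, another activating protease, was at 0 in 8 of the 10 libraries covering it, with 2.55 RPKM in heterokaryon day 1 replicate 1 and 0.0729 in unfused fibroblast replicate 2.

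Of the 19 genes of the HGF list 8 were measured at day 1 against co-culture. Of these, 3 were called lower and 2 higher, beside 4.52% lower and 6.25% higher over all genes. Beside MET and PLAU the lower one was NRP1, a co-receptor for several growth factors, at -1.50 (adjusted p = 0.0272). The higher ones were SDC1, a heparan sulfate proteoglycan of the cell surface, at 2.12 (adjusted p = 0.00448), and PLXNB1, a semaphorin receptor, at 1.83 (adjusted p = 0.0253). The SDC1 call held under 10 of 11 alternatives, that of NRP1 under 7 and that of PLXNB1 under 6. The NRP1 and PLXNB1 calls ended with only the 2 groups compared and without either co-culture library. The median of the 8 measured genes was -1.02 against 0 over all genes tested. At day 2 the list had 1 gene lower and 1 higher of 5, beside 3.77% lower and 6.67% higher over all genes. At day 3 it had SDC1 higher of 6, beside 2.29% higher over all genes.

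STC2, the paralog of STC1, was not highest in co-culture. It was at 112 and 113 RPKM in the co-cultures, 114 in unfused fibroblasts (replicate 2) and 142 in the homokaryon. The heterokaryons held 34.7 and 45.0 at day 1, 48.8 in the day 2 library that covers it, and 72.2 and 104 at day 3. STC2 was lower at day 1 than in co-culture by 1.48 on the log2 scale (SE 0.29, adjusted p = 0.0244). The call ended when day 1 replicate 1 or either co-culture was left out (adjusted p up to 0.160). Of the 8 genes of the STC1 list 6 were measured in that comparison, with 2 called lower, STC2 and IGFBP5, and 1 higher, beside 4.52% lower and 6.25% higher over all genes. The higher one was UCP2, a mitochondrial uncoupling protein, at 199 and 184 RPKM at day 1, 33.2 and 25.02 in the co-cultures and 12.7 in unfused fibroblast replicate 2. UCP2 was higher than in co-culture by 2.69 at day 1 (adjusted p = 0.0180) and by 3.07 at day 2 (adjusted p = 0.0116), each held under 7 of 11 alternatives. It was the 1 gene of 5 called at day 2, beside 6.67% higher over all genes. At day 3 none of 6 was called, beside 3.48% over all genes.

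PAPPA, the protease that stanniocalcins inhibit, was lowest in unfused fibroblasts, at 6.51 RPKM, and was at 19.5 and 24.4 in the co-cultures and 48.7 in the homokaryon. Heterokaryon values were 11.2 and 14.6 on day 1, 40.3 and 45.1 on day 2 and 55.0 and 49.2 on day 3. Day 1 did not overlap the later days. PAPPA rose from day 1 to day 3 by 1.94 on the log2 scale (SE 0.33, adjusted p = 0.0462), but this held under 1 of 11 alternatives. IGFBP4, the binding protein that PAPPA cleaves, reached 1823 and 1282 RPKM on day 1, 1410.4 and 1320 on day 2, 826 and 2579 on day 3, 775 and 742 in the co-cultures, 1141 in the homokaryon and 352 in unfused fibroblast replicate 2. No test of IGFBP4 between heterokaryon days or against co-culture passed.

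IGFBP5, a further insulin-like growth factor binding protein, was covered in both fibroblast libraries, at 220 and 212 RPKM in replicates 1 and 2. It was at 692 and 718 in the co-cultures, 207 and 308 on heterokaryon day 1, 377 and 323 on day 2, 936 and 513 on day 3 and 1045.5 in the homokaryon. IGFBP5 was higher in co-culture than in unfused fibroblasts by 1.70 (adjusted p = 0.0497), where 8 of 963 genes (0.831%) were called; this held under 2 of 11 alternatives. It rose at day 3 against fibroblasts by 1.68 (SE 0.30, adjusted p = 0.0134), which held under 8 of 11, beside 5.4% higher over all genes. IGFBP5 was lower than co-culture at day 1 by 1.48 (adjusted p = 0.0184).

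Of the osteoprotegerin ligands TNFSF11 was not covered and TNFSF10 was low. TNFRSF11A, the signalling receptor of TNFSF11, was at 0 in all 9 libraries that cover it among those of the 10 more complete tables. TNFSF10 was at 0 in 7 of these 9, with 0.347 RPKM in heterokaryon day 3 replicate 2 and 2.16 in the homokaryon. Of the 10 genes of the TNFRSF11B list 4 were measured at day 1 against co-culture, with 1 called lower and 1 higher. Over all genes 4.52% were called lower and 6.25% higher. TNFRSF10C and TNFRSF10D, the decoy receptors of TRAIL, moved in opposite directions at day 1 against co-culture. TNFRSF10D, at 157 and 162 RPKM in the co-cultures and 31.8 and 43.5 at day 1, was lower by 2.07 (SE 0.29, adjusted p = 0.00910), and TNFRSF10C, at 1.75 and 3.72 in the co-cultures and 16.8 and 13.5 at day 1, was higher by 2.15 (SE 0.47, adjusted p = 0.0339). The former held under 9 of 11 alternatives, the latter under 3. At day 3 the same 2 genes were called in the same directions, at -1.45 (adjusted p = 0.0490) and 3.19 (adjusted p = 0.0202), which held under 1 and 5 of 11 alternatives. Over all genes 1.19% were called lower and 2.29% higher on that day.

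Among relatives of NPTX1, the neuronal pentraxin NPTX2 was at 0 in 8 of the 10 libraries that cover it and reached 0.901 RPKM in heterokaryon day 1 replicate 1. PTX3, the long pentraxin of innate immunity, was at 32.6 and 35.7 RPKM in the co-cultures, 22.4 in unfused fibroblasts (replicate 2) and 66.5 in the homokaryon. PTX3 values of the heterokaryons were 6.21 and 5.82 on day 1, 50.2 and 31.4 on day 2 and 51.1 and 44.9 on day 3, so both later days lay above both day 1 libraries. PTX3 rose from day 1 to day 2 by 2.54 (SE 0.34, adjusted p = 0.0365) and from day 1 to day 3 by 2.80 (SE 0.34, adjusted p = 0.0365). The former held under 4 of 11 alternatives and the latter under 7. Against co-culture PTX3 was lower at day 1, by 2.32 (adjusted p = 0.00809), and did not pass at day 2 or day 3 (0.21 and 0.48, adjusted p = 0.736 and 0.533). Of the 11 genes of the NPTX1 list 2 were measured at day 1 against co-culture, and the other, TNFRSF1A, a receptor of tumour necrosis factor, was also lower (-1.13, adjusted p = 0.0451), which held under 4 of 11 alternatives. Over all genes 4.52% were called lower and 6.25% higher.

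**Figure D4:**
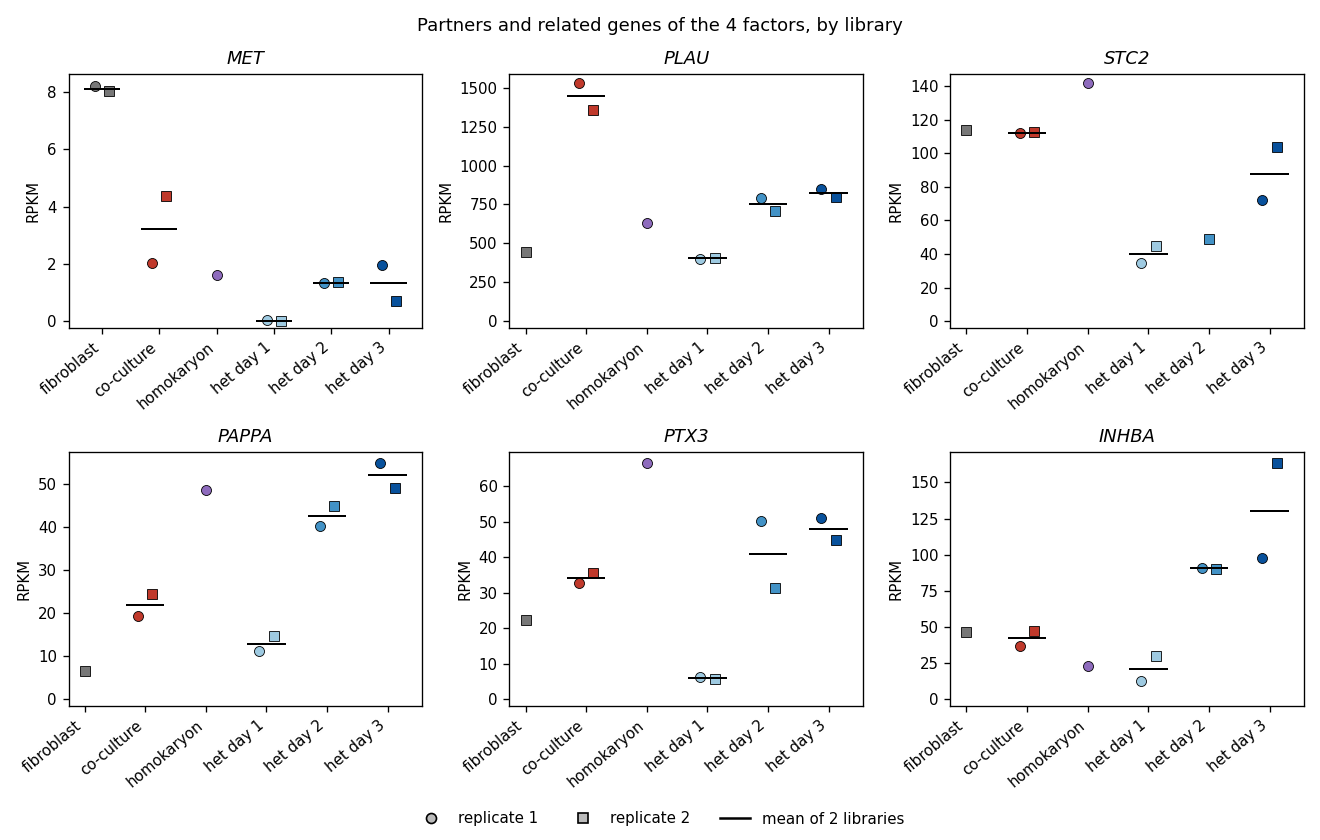
Transcript level in RPKM (linear axis from 0) by library for MET, PLAU, STC2, PAPPA, PTX3 and INHBA, with points for replicates and bars for the mean of 2 libraries; only MET is covered in unfused fibroblast replicate 1. PLAU is highest in the co-cultures, at 1529.7 and 1360.2, and MET is highest in unfused fibroblasts, at 8.20 and 8.02. In every panel day 1 lies below days 2 and 3, with STC2 covered in a lone day 2 library.

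Other secreted growth factors were called in both directions. Of 66 listed, 26 were measured at day 1 against co-culture: 4 were lower and 1 higher, beside 4.52% lower and 6.25% higher over all genes, with a median of -0.71 against 0 over all genes. The lower ones were WNT5A, a noncanonical Wnt ligand (-4.18, adjusted p = 0.00448), AREG, a ligand of the epidermal growth factor receptor (-3.69, adjusted p = 0.0160), and the vascular growth factors VEGFC (-2.80, adjusted p = 0.0140) and VEGFA (-1.81, adjusted p = 0.0140). GDF15, a stress-induced cytokine, was the higher one (3.78, adjusted p = 0.00290), at 997 and 758 RPKM at day 1 against 51.0 and 75.8. At day 2 WNT5A, AREG and TGFB1 were lower and MDK, the heparin-binding factor midkine, was higher, of 21 measured, beside 3.77% lower and 6.67% higher over all genes. The WNT5A call held under 6 of 11 alternatives, AREG under 5, TGFB1 under 2 and MDK under 8. At day 3 AREG was lower, held under 7 of 11, and MDK higher, held under 6, of 22 measured, beside 1.19% lower and 2.29% higher over all genes. The calls of WNT5A, VEGFA and VEGFC at day 1 ended when either co-culture library was left out (adjusted p up to 0.149), whereas that of GDF15 held under all 11 alternatives run. How the AREG call at day 1 held under the alternatives was not tallied.

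AREG, singled out here after its values were seen, was also highest in co-culture, at 232 and 297 RPKM against 3.23 in unfused fibroblast replicate 2, 0 in the homokaryon and 3.39 to 27.4 in the heterokaryons. Between heterokaryon days, INHBA, the inhibin beta A chain of activin A, was the 1 growth factor called. It was 1 of 22 measured at day 3 against day 1, where 1.26% of all genes were called. None of 21 was called at day 2 against day 1 or at day 3 against day 2, beside 0.327% and 0% over all genes. INHBA rose from day 1 to day 3 by 2.65 (SE 0.44, adjusted p = 0.0462), from 12.3 and 29.6 RPKM to 97.5 and 163, and this held under 3 of 11 alternatives.

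Of the 23 listed hypoxia targets 11 were measured at day 1 against co-culture and 3 were lower, VEGFA, LOX and HK2, beside 4.52% lower over all genes. HK2, a glycolytic enzyme, differed by -2.41 (adjusted p = 0.0171), which held under 8 of 11 alternatives, whereas the call of LOX, a collagen cross-linking enzyme (-1.40, adjusted p = 0.0484), held under 1 of 11. None was called at day 2, of 8, beside 10.4% over all genes. At day 3 HK2 was lower, of 10, beside 1.19% lower over all genes, and its call held under 5 of 11. Of the 19 genes of cyclic AMP and prostaglandin response 9 were measured at day 1 against co-culture and 7 at day 3. None of them was called, beside 10.8% and 3.48% over all genes. At day 2, of 6 measured, PDE4B was lower, beside 3.77% lower over all genes, and its call held under 4 of 11 alternatives. Against unfused fibroblasts PTGER4, a prostaglandin E2 receptor listed in neither day 1 library and at 3.68 and 3.84 RPKM in fibroblast replicates 1 and 2, was lower at day 1 (adjusted p = 0.0244), a call that held under 5 of 11 alternatives. It was 1 of 4 measured there, beside 6.65% lower over all genes.

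The genes most like each member across libraries were found by Pearson correlation of log2(RPKM + 1), as a description. The libraries share groups, so a gene high in the 2 co-cultures correlates by that alone. For HGF, over 11 libraries and 976 genes, they were ANPEP (0.88), SRRM3 (0.84), C11orf96 (0.80), PTCH1 (0.79) and SLC45A4 (0.78). ANPEP, a cell surface aminopeptidase, had mean levels of 210 RPKM in the co-cultures, 179 in the homokaryon, 95.9 in the unfused fibroblasts and 49.9 to 125 over the heterokaryon days. For NPTX1, over 10 libraries and 2471 genes, they included IL13RA2 (0.98), FZD1 (0.92), DHCR7 (0.92) and UNC13A (0.90). FZD1, a Wnt receptor, had a mean of 15.2 RPKM in the co-cultures, 8.80 in unfused fibroblast replicate 2, 5.02 in the homokaryon and 2.28 to 2.83 over the heterokaryon days.

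For STC1 the closest genes were CCDC184 (0.98), SLC45A1 (0.92), IL13RA2 (0.88), TGFB1 (0.86) and TBC1D25 (0.85). IL13RA2, a decoy receptor for interleukin 13, was in the lists of both STC1 and NPTX1. It had a mean of 2.67 RPKM in the co-cultures, 0.384 in unfused fibroblast replicate 2 and 0 in every heterokaryon and homokaryon library. For TNFRSF11B the closest were IVD (0.95), ATM (0.95), F3 (0.94), ITPRIPL2 (0.94) and PPP1R10 (0.94). F3, tissue factor, had means of 311 RPKM in the co-cultures, 329 in the homokaryon, 205 in the unfused fibroblast library and 45.4, 112 and 149 at days 1, 2 and 3. Among the members themselves the correlation was 0.84 between STC1 and NPTX1, 0.84 between HGF and NPTX1, 0.68 between HGF and STC1, and 0.42 to 0.56 between TNFRSF11B and the other 3.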

How the data were processed

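PolyA RNA sequencing tables of 11 of 12 libraries were used; the table of unfused fibroblast replicate 3 held none of the human accessions. Per the submitters' processing notes the genome builds were hg19 and mm10; the aligner and the quantifier are not given in the sources used here. The values the authors deposited, 1 per RefSeq transcript, were taken as RPKM, a unit inferred from the values and shared in form by FPKM and TPM. Each table but that of fibroblast replicate 1 holds 10000 distinct values and stops in accession order, so a missing transcript was 0 before that end and not covered after it. Coding transcripts were summed per gene with the RefSeq table (GRCh38); 239 genes near accessions without a name were set aside, none of them a member. In the table of fibroblast replicate 1, 12138 accessions outside the human table were not used. Whether mouse reads entered the scaling of a library, or mouse reads were assigned to human transcripts, is not given.

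The tests used lmFit and eBayes with trend of limma 3.58.1 (R 4.3.3) on log2(RPKM + 1); genes that reached 1 in fewer than 2 libraries were left out. The 10 libraries of the 5 replicated groups shared the spread, and genes had to be covered in all libraries of both groups. Where unfused fibroblast replicate 1 did not cover a gene, a fit of genes covered in part was used, with the lone library assumed to vary like the other groups. Calls are at p under 0.05 after Benjamini-Hochberg adjustment over all genes tested. The script was tested on simulated data. Alternatives were a pseudocount of 0.5, no filter, upper quartile scaling, quantile normalization, only the 2 groups compared, a replicate block, genes covered in part and each library left out; HGF as NM_000601 alone was added after seeing the data. Named genes were the 4 members, listed direct partners, up to 4 called genes per list and comparison with the smallest adjusted p, and the 5 most correlated genes per member, of which 1 is not reported here. The members, gene lists and rules were chosen with earlier results of these data known.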

Additional observations from a re-analysis of the deposited data

Results flagged for a closer look

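Among the named genes 5 differences between heterokaryon days passed the test, each a difference between time points. Genes could be named because they were called, so this count is no result about the named genes. Over all genes 0.327% were called at day 2 against day 1 and 1.26% at day 3 against day 1. PTX3 was higher at day 2 than at day 1 by 2.54 on the log2 scale. Day 3 was above day 1 for PTX3, by 2.80, for INHBA, by 2.65, for PAPPA, by 1.94, and for PLAU, by 1.03. The PTX3 call at day 2 held under 4 of 11 alternatives. Those at day 3 held under 7 for PTX3, 3 for INHBA, 1 for PAPPA and 3 for PLAU. Each call ended with the replicate number as a block. All are partners or other growth factors; no member passed. No group had the 4 samples that a search for outlying samples needs.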

How the results depend on the processing

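Deviations of same-numbered libraries correlated at -0.108 to 0.106 over 963 genes, so no pairing by replicate number was seen across these genes together. This cannot tell if single genes follow the replicate number. HGF was higher in replicate 2 in each of the 5 replicated groups, though in unfused fibroblasts only by 22.8 against 22.5 RPKM. With the replicate number as a block, 0 genes were called between day 1 and day 2, 0 between day 1 and day 3, 46 at day 3 against co-culture and 4 in co-culture against unfused fibroblast; TNFRSF11B at day 1 against unfused fibroblast was -4.99 (adjusted p = 0.0851). No other call on a member changed under the block.

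Counts of called genes moved more than member values. Day 2 against day 1 gave 20 with no filter, 0 with quantile normalization, 0 with only the 2 groups, 20 with genes covered in part, and 0 to 5 with a library left out. Day 3 against day 2 gave 9, with no filter, 13, with genes in part, and 0 to 18. Day 3 against day 1 gave 6 with a pseudocount of 0.5, 9 with no filter, 0 with only the 2 groups, 24 with genes in part, and 0 to 55. Against unfused fibroblasts, day 1 gave 238 with genes in part and 20 to 143 with a library left out; with only the 2 groups, day 2 gave 290 and day 3 gave 114, and with a library left out they gave 30 to 76 and 14 to 103. Against co-culture, day 1 gave 241 with no filter, 213 with only the 2 groups, and 42 to 343; day 2 gave 513 with only the 2 groups and 28 to 46; day 3 gave 12 with only the 2 groups and 5 to 167. Co-culture against unfused fibroblast gave 15 with a pseudocount of 0.5, 15 with upper quartile scaling, 16 with quantile normalization, 104 with only the 2 groups, 24 with genes in part, and 1 to 11. The cause was not tested.

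Of the member values 393 counted as unchanged, 5 lost a call, 3 gained one, 16 moved and 14 turned sign, none of the last with a call. Tested values counted as unchanged where they kept direction and side of the threshold. Differences that involve co-culture did so within their standard error, and homokaryon ratios within the spread of the fibroblast libraries. TNFRSF11B at day 1 against co-culture was -6.58 with a pseudocount of 0.5, NPTX1 was -3.26 with quantile normalization, and HGF as NM_000601 alone was -2.37 at day 2 against co-culture and 2.26 in co-culture against unfused fibroblast. TNFRSF11B at day 3 against day 1 was 3.69 with upper quartile scaling, and at day 1 against unfused fibroblast it was -4.77 with no filter, no longer called; HGF there was -0.021 with upper quartile scaling. The homokaryon ratios under that scaling were 2.93 (HGF), 0.222 (STC1), 1.18 (TNFRSF11B) and 0.740 (NPTX1). With a library left out, day 2 against day 1 ranged from -0.99 to 0.0052 for HGF and from -0.39 to 0.015 for NPTX1. Day 3 against day 2 ranged from -0.83 to 0.29 for HGF, from -1.15 to 1.62 for STC1 and from -1.45 to 1.01 for TNFRSF11B (0.027 without day 2 replicate 2). Day 3 against day 1 ranged from -0.55 to 2.22 for STC1, from 2.36 to 4.82 for TNFRSF11B and from -0.17 to 0.23 for NPTX1. Against unfused fibroblasts, HGF ranged from -0.11 to 0.88 at day 1, from -0.33 to 0.12 at day 2 and from -0.93 to 0.19 at day 3, TNFRSF11B from -4.92 to -4.63 at day 1 and from -2.41 to 0.049 at day 3, and STC1 from -2.10 to 0.68 at day 3. Against co-culture, HGF ranged from -2.86 to -1.87 at day 1 and from -3.69 to -2.57 at day 3, where STC1 ranged from -4.38 to -1.60 and TNFRSF11B from -3.35 to -0.89; each of these stayed below 0. Of partner results, 213 kept and 123 lost their call. This tally takes, of the left-out libraries, only the one with the largest adjusted p per result, unlike the counts of 11 alternatives above. The depth of the libraries is not known.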
